A study of Saccharomyces cerevisiae BY4741 with 6 samples.

Results

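Ergosterol synthesis and sterol ester metabolism were followed through 36 genes, chosen by name: the enzymes of the pathway, the scaffold and redox partners they need, the enzymes that esterify, hydrolyse or acetylate sterols, and the regulators of the pathway. The array's annotation names a probe set for each of the 36, out of 5449 genes measured, and each of the 36 has a single probe set. The cells were BY4741, a haploid laboratory strain of mating type a, grown in rich YPD medium at 30 °C. In 3 cultures 10 mg/mL neomycin sulfate was present for 4 h, while 3 cultures were left untreated, and RNA from each culture was read on its own Affymetrix Yeast Genome 2.0 array. Both groups carry the *HIS3*, *LEU2*, *MET17* and *URA3* lesions of BY4741, and the whole comparison is of this one strain at a single dose and time.

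Ergosterol is the main sterol of the yeast plasma membrane, where it sets fluidity and permeability as cholesterol does in animals. The pathway turns acetyl-CoA into mevalonate and farnesyl diphosphate, joins farnesyl units into squalene, closes squalene into lanosterol, and then trims and rearranges lanosterol into ergosterol. Excess sterol is esterified with fatty acids in the endoplasmic reticulum and stored in lipid droplets. The zinc cluster factors Upc2 and Ecm22 activate many genes of the pathway when sterol is scarce, and the late oxidative steps need oxygen and heme.

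Each value below is the authors' GCRMA signal on the log2 scale, so that a difference of 1 is a doubling. Log2 fold changes were taken as the mean log2 signal over neomycin arrays less that over untreated ones, and ratios were formed from mean signals on the linear scale. Array medians ran from 8.84 to 8.93 with neomycin and from 8.90 to 8.92 without it. *LEU2*, *MET17* and *URA3*, absent from BY4741, had values of 3.21 to 4.90, the highest of their means over the arrays being 4.68. *HIS3*, of which the strain lacks only a part, read 10.23 to 10.66 and was not used for this mark. All 36 sterol genes lay above this mark on every array, the lowest single value being 6.94. The a-cell genes read 9.97 to 12.86, the α-cell genes 3.12 to 8.59 and the genes of meiosis and sporulation 3.82 to 7.45. Among the sterol genes, *UPC2* (7.01 to 7.91) and *ARE2* (6.94 to 8.52), with some others, fell within the α-cell range. Lying above the mark therefore does not by itself show clear expression. Across genes, neomycin replicate 1 correlated best with untreated replicate 2 (r = 0.993), above its correlation with either of the other neomycin arrays (0.987 and 0.988). Results of the sterol genes that rest on it are therefore given with and without it. The p-values set a difference between groups against the spread among these cultures, each read on 1 array. In limma's test that spread is moderated by the spread over all genes.

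The transcripts of the sterol pathway were close to one another in neomycin-treated and untreated cells. Ratios ran from 0.839 for *ERG24* to 1.53 for *UPC2*, and 31 of 36 log2 fold changes were smaller than 0.25 in size. In limma's test, adjusted over all genes by Benjamini-Hochberg at 0.05, 0 of the 36 were called higher and 0 lower. Of all genes 0.514% were called, 0.422% as higher and 0.0918% as lower. Under the criteria of the study, which ask for a regularised p no higher than 0.05 and a ratio of 1.7 or more for induction or 0.6 or less for repression, 0 were induced and 0 repressed, against 1.45% and 0.367% of all genes. At an unadjusted p under 0.05, *UPC2* and *ERG28* were higher and *ERG24* lower, 3 of 36 genes where the share over all genes was 13.4%, with 5.05% higher and 8.33% lower. The median log2 fold change was −0.02 over the sterol genes and −0.05 over all genes, with a median size of 0.09 and 0.13.

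How small a change these arrays allow can be read from the intervals. The 95% interval of limma lay between a 1.7-fold rise and a 1.7-fold fall for 34 of the 36 genes, the exceptions being *UPC2* and *ARE2*, and for 4884 of 5449 genes overall. It lay inside 1.5-fold either way for 32 of the 36. For all 25 genes of synthesis from *ERG10* to *NCP1* a 1.7-fold change in either direction was outside the interval. These intervals are for single genes and are not widened for the number of genes.

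**Figure D1:**
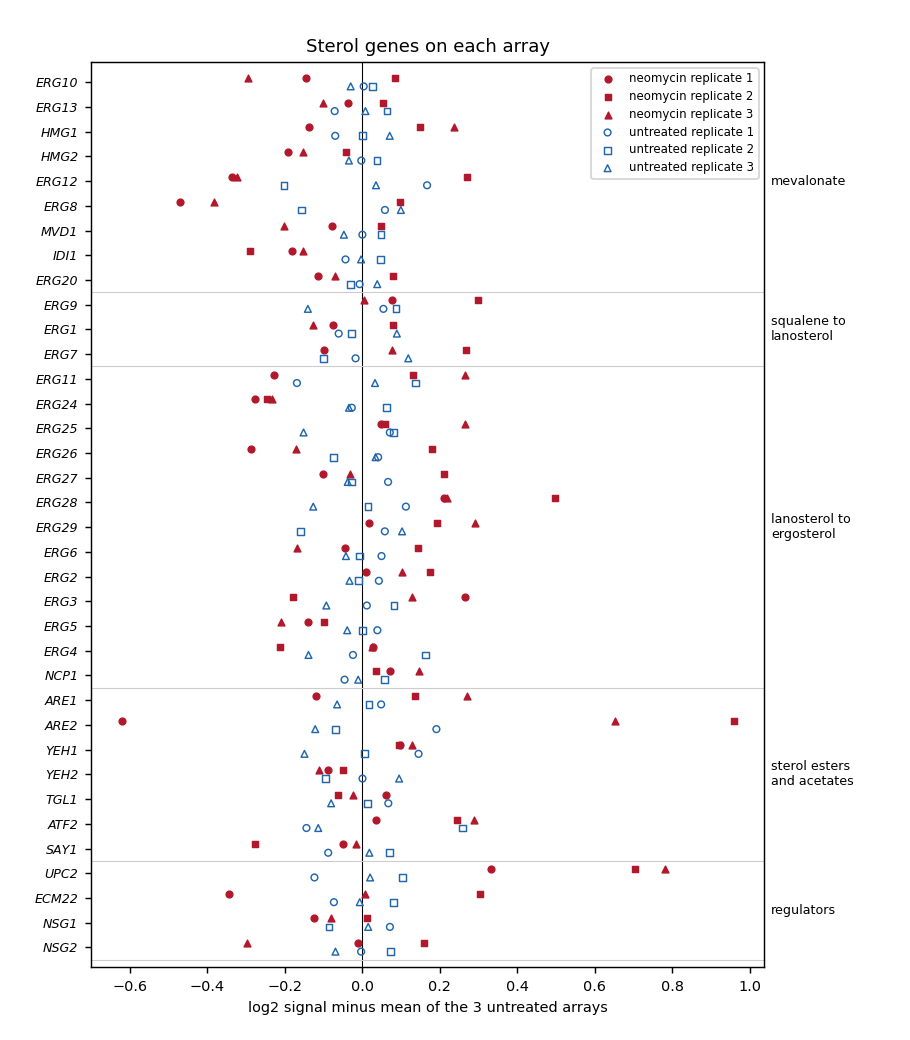
Log2 signal of each of the 36 sterol genes on each array, minus the mean of its 3 untreated arrays (horizontal axis), in pathway order from top to bottom, with filled red symbols for neomycin and open blue symbols for untreated cultures, 1 symbol shape per replicate number. Most genes overlap between groups, *UPC2* stands to the right on all 3 neomycin arrays, and *ARE2* spreads from −0.62 to 0.96 among them.

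On 6 of the 36 genes the neomycin arrays did not overlap the untreated arrays, a share of 16.7%, against 18.4% of all genes. Neomycin lay above for *UPC2* and *ERG28* and below for *HMG2*, *IDI1*, *ERG24* and *ERG5*. The shares over all genes were 5.58% above and 12.8% below. Of these genes *UPC2*, *ERG28*, *IDI1* and *ERG24* stayed apart after a further quantile normalisation, where *HMG2* and *ERG5* overlapped and 8.57% of all genes lay above and 9.93% below. All 6 stayed apart when each array was centred on its median, where *ERG2* and *ERG29* joined them above and the shares over all genes were 8.75% above and 9.43% below. For one gene in 3 against 3 arrays an exact permutation test, 2-sided, cannot give a p under 0.1. Groups that do not overlap always give this smallest value. The 6 genes were picked for not overlapping, so their exact permutation test result (p = 0.1 for each) was fixed by that choice. That result adds no evidence that they differ.

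The first block of the pathway, from acetyl-CoA to farnesyl diphosphate, held 9 genes. Their log2 fold changes had a median of −0.12, and 8 of the 9 lay below 0, as they did after quantile normalisation, while 6 of the 9 did after centring. Of all 5449 genes 3383 lay below 0 as reported, 3010 after quantile normalisation and 2924 after centring. None of the 9 passed the adjusted test (limma, lowest adjusted p = 0.402), and 0 had an unadjusted p under 0.05. *ERG10*, the acetoacetyl-CoA thiolase that opens the route, and *ERG13*, the HMG-CoA synthase, had log2 fold changes of −0.12 and −0.03. HMG-CoA reductase, the main control point, is made by a pair of isozymes. *HMG1* had 9.91, 10.19 and 10.28 with neomycin, against 9.98, 10.05 and 10.12 without it. *HMG2* had 9.45, 9.60 and 9.49 with neomycin, against 9.64, 9.68 and 9.61 in untreated cells. The groups overlapped for *HMG1* (log2 fold change 0.08, SE 0.12), while for *HMG2* each neomycin array was below each untreated one by a small margin (−0.13, SE 0.10, adjusted p = 0.633).

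After the reductase come the kinases and the steps that make and join isoprene units. *ERG12*, the mevalonate kinase, had 9.59, 10.20 and 9.60 with neomycin, against 10.09, 9.72 and 9.96 without it. *ERG8*, the phosphomevalonate kinase, had 10.13, 10.70 and 10.22 in neomycin cultures, against 10.66, 10.45 and 10.70 in untreated ones. On both genes neomycin replicate 2 was high among the treated arrays and untreated replicate 2 was the lowest of its group, and the groups overlapped (log2 fold changes −0.13, SE 0.18, and −0.25, SE 0.16). Leaving out neomycin replicate 2 gave *ERG8* a value of −0.43, and leaving out neomycin replicate 1 a value of −0.14. *IDI1*, the isopentenyl diphosphate isomerase, had 10.99, 10.88 and 11.02 with neomycin and 11.13, 11.22 and 11.17 without it. Its groups did not overlap, and its log2 fold change of −0.21 (SE 0.10, adjusted p = 0.402, limma) had a 95% interval from −0.43 to 0.01. *MVD1*, the mevalonate diphosphate decarboxylase, and *ERG20*, the farnesyl diphosphate synthase, had log2 fold changes of −0.08 and −0.04.

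Neomycin replicate 2 was the highest treated array for 7 of these 9 genes. Leaving out the highest treated array of a gene can only favour its lying below. This omission is singled out after the values were seen, while the share over all genes was not picked so. The count that follows is therefore a description and no evidence of a fall. With all arrays 2 of the 9 lay below. Without it, 7 of the 9 had both remaining neomycin arrays below every untreated array, namely *ERG10*, *HMG2*, *ERG12*, *ERG8*, *MVD1*, *IDI1* and *ERG20*, where the share over all genes was 27.5%. Of all 36 sterol genes 12 were then below and 4 above, the share above over all genes being 7.85%. The median of the 9 was then −0.17, against −0.09 over all genes, and 0 of them passed limma's adjusted test. Set against the mean of the untreated arrays, the median of the 9 was −0.15, 0.08 and −0.15 on neomycin replicates 1, 2 and 3, against −0.00 to 0.03 on the untreated arrays. Over all genes the corresponding medians of the neomycin arrays were −0.11, 0.03 and −0.05, so that replicate 2 was also the highest there.

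The genes that carry farnesyl diphosphate to lanosterol overlapped between groups at each step. *ERG9*, the squalene synthase that commits carbon to sterol, had 11.07, 11.30 and 11.004 with neomycin, against 11.05, 11.09 and 10.86 without it (log2 fold change 0.13, SE 0.12). *ERG1*, the squalene epoxidase and target of allylamine drugs, had 11.70, 11.85 and 11.65 in neomycin cultures, against 11.71, 11.75 and 11.86 in untreated ones (−0.04, SE 0.11). Their intervals ran from −0.15 to 0.41 and from −0.29 to 0.20 on the log2 scale. *ERG7*, the lanosterol synthase, had a log2 fold change of 0.08.

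Between lanosterol and ergosterol lay 13 genes with a median of 0.06, 8 values above and 5 below 0. *ERG11*, the cytochrome P450 that demethylates lanosterol and is the target of azole drugs, had 12.15, 12.51 and 12.64 with neomycin, against 12.21, 12.51 and 12.41 without it. The groups overlapped, and neomycin replicate 1 was the lowest of the 6 arrays (log2 fold change 0.06, SE 0.15, adjusted p = 0.919, limma). *NCP1*, the reductase that passes electrons to Erg11, had a log2 fold change of 0.08.

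*ERG24*, the sterol reductase that acts next and is a target of morpholine fungicides, had 10.85, 10.88 and 10.90 with neomycin, against 11.10, 11.19 and 11.10 in untreated cells. The treated arrays were tightly grouped below the untreated ones, with a ratio of 0.839 and a log2 fold change of −0.25 (SE 0.09, 95% interval −0.47 to −0.04). The adjusted p was 0.320 (limma), and over the alternatives it ran from 0.231 to 0.682.

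*ERG28*, an endoplasmic reticulum protein that holds the demethylating enzymes together, had 10.10, 10.39 and 10.11 with neomycin, against 10.00, 9.90 and 9.76 without it. Every neomycin array lay above every untreated one, by 0.10 at the closest pair, and the ratio was 1.24 (log2 fold change 0.31, SE 0.12, 95% interval 0.03 to 0.59, adjusted p = 0.345, limma). Among the enzymes that it tethers, *ERG25*, the methyl sterol oxidase, *ERG26*, the decarboxylating dehydrogenase, and *ERG27*, the keto reductase, had log2 fold changes of 0.12, −0.09 and 0.03, and their groups overlapped. *ERG29*, which is also needed for ergosterol synthesis, had a value of 0.17. Whether *ERG28* differed from those genes was not tested.

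In the last steps the arrays of the groups stood apart for one gene. *ERG5*, the P450 desaturase, had 10.68, 10.73 and 10.62 with neomycin, against 10.86, 10.83 and 10.79 without it, a log2 fold change of −0.15 (SE 0.09, adjusted p = 0.546, limma) with groups that did not overlap. The sterol methyltransferase gene *ERG6*, the isomerase gene *ERG2*, the desaturase gene *ERG3* and the final reductase gene *ERG4* had log2 fold changes of −0.02, 0.09, 0.07 and −0.05. For *ERG3* and *ERG4* neomycin replicate 2 was the lowest of the treated arrays, unlike in most of the mevalonate block.

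**Figure D2:**
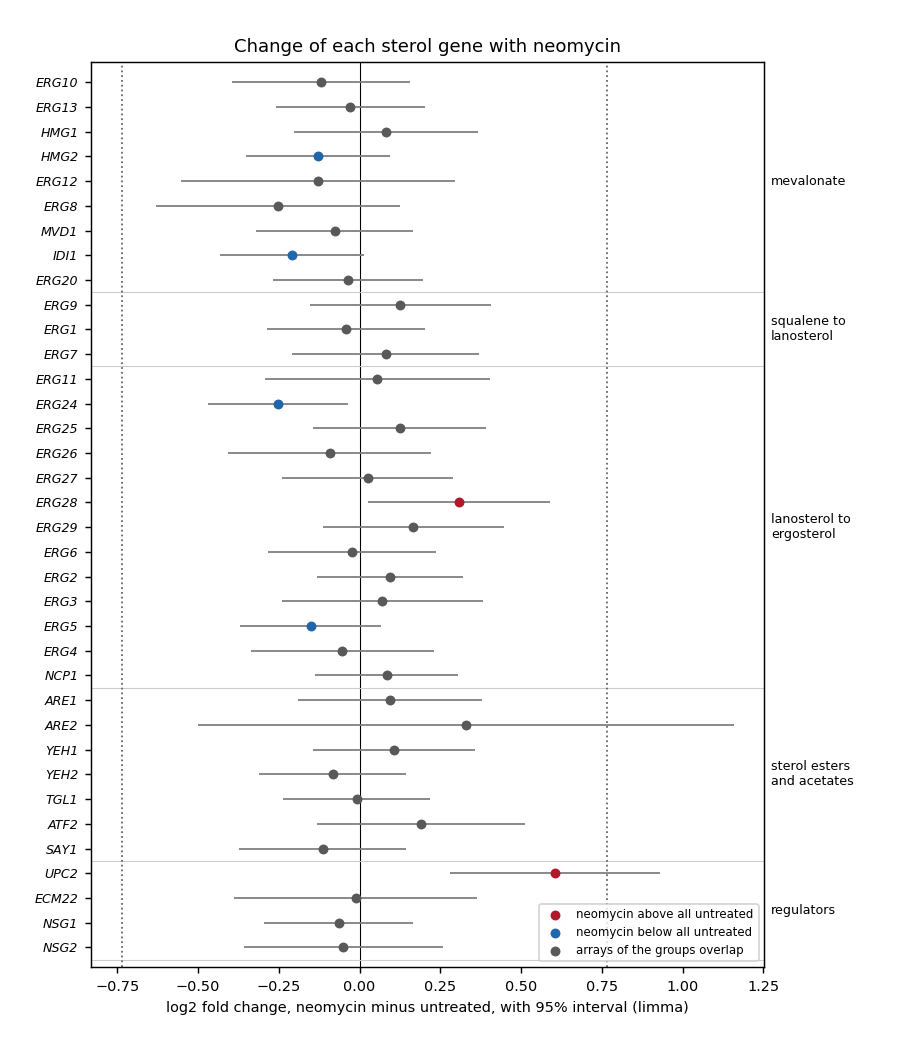
Log2 fold change of each gene, neomycin minus untreated, with its 95% interval from limma (n = 3 arrays per group), coloured by whether the arrays of the groups overlap, with dotted lines at ratios of 1.7 and 0.6. The 25 genes of synthesis lie inside the dotted lines with their intervals, and the intervals of *ARE2* and *UPC2* cross the upper line.

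Sterol ester formation rests on a pair of acyl-CoA sterol acyltransferases. *ARE1* had 8.82, 9.08 and 9.21 with neomycin, against 8.99, 8.96 and 8.88 without it (log2 fold change 0.10, SE 0.12). *ARE2*, which makes most of the steryl esters of aerobic cells, had 6.94, 8.52 and 8.21 in neomycin cultures, against 7.75, 7.49 and 7.44 in untreated ones. Neomycin replicate 1 was the lowest of the 6 arrays and replicates 2 and 3 the highest, a range of 1.58 among treated arrays and of 0.31 among untreated arrays. No other sterol gene varied as much within a group, the next range being 0.65, for *ECM22* with neomycin. Over the 3 treated arrays the ratio was 1.38 (log2 fold change 0.33, SE 0.36, 95% interval −0.50 to 1.16, adjusted p = 0.757, limma).

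*ARE2* therefore depended on neomycin replicate 1. Without it, limma gave a log2 fold change of 0.81 (SE 0.15, adjusted p = 0.0348) and a ratio of 1.75, and *ARE2* was then the single sterol gene past the criteria of the study. Without neomycin replicate 2 its log2 fold change was 0.02 (adjusted p = 0.982). The same omission of replicate 1 brought *UPC2* past the test, and these 2 of 36 genes stood beside 2.61% of all genes called, 2.18% as higher. Without that array 7 sterol genes had both neomycin arrays above all untreated ones, where the share over all genes was 14.2%, and 4 had them below, where it was 16.9%.

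The opposite reaction, hydrolysis of steryl esters, is carried out by Yeh1, Yeh2 and Tgl1. *YEH1* had 8.98, 8.98 and 9.01 with neomycin, against 9.03, 8.89 and 8.74 without it. *YEH2* had 9.37, 9.40 and 9.34 in neomycin cultures, against 9.45, 9.36 and 9.55 in untreated ones. Their groups overlapped, with log2 fold changes of 0.11 (SE 0.11) and −0.08 (SE 0.10), and *TGL1* had a value of −0.01. *ATF2*, for sterol acetylation, through which yeast exports foreign steroids, had a log2 fold change of 0.19 (SE 0.14). *SAY1*, for the reverse reaction of deacetylation, had a value of −0.11 (SE 0.11). Over the 7 genes of esters and acetates the median was 0.10, 0 passed the adjusted test in limma, 0 had an unadjusted p under 0.05 and 0 met the ratio criteria.

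*UPC2* had the largest log2 fold change of the 36 genes. It read 7.46, 7.84 and 7.91 with neomycin, against 7.01, 7.24 and 7.15 in untreated cells, means of 7.74 ± 0.240 and 7.13 ± 0.115 (SD, n = 3 each). All 3 treated arrays were above all 3 untreated arrays, and neomycin replicate 1 was the lowest of the treated. The ratio was 1.53, and the log2 fold change was 0.61 (SE 0.14, 95% interval 0.28 to 0.93), with an unadjusted p of 0.00265 and an adjusted p of 0.133 from limma. It stayed positive under each alternative that kept the gene, from 0.52 to 0.74. The adjusted p-values (limma) ran from 0.0244 without neomycin replicate 1 to 0.429 without untreated replicate 1. The filter on dim genes left out *UPC2*, as it did *ARE2*, so neither has a value there.

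Its paralogue *ECM22*, which binds the same promoter element, had 7.71, 8.36 and 8.06 with neomycin, against 7.99, 8.14 and 8.05 without it (log2 fold change −0.01, SE 0.16, 95% interval −0.39 to 0.36). The untreated arrays lay inside the range of the treated ones. *NSG1* and *NSG2*, relatives of the mammalian INSIG proteins that control the stability of HMG-CoA reductase, had log2 fold changes of −0.06 (SE 0.10) and −0.05 (SE 0.13). For *NSG1* the arrays read 10.71, 10.85 and 10.75 with neomycin, against 10.91, 10.75 and 10.85 in untreated cells. *NSG2* had 9.86, 10.03 and 9.57 with neomycin, against 9.86, 9.94 and 9.80 without it.

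Since both genes of a pair are read on the same array, a shift of that whole array cancels in the difference of their log2 signals. Probes of different genes differ in brightness, so that only the shift of this difference between groups can be read. *UPC2* minus *ECM22* was −0.25, −0.53 and −0.15 with neomycin, against −0.98, −0.90 and −0.90 in untreated cells, a shift of 0.62 with groups that did not overlap. The exact permutation test, 2-sided, gave p = 0.1, the smallest that it can give, and 0.25 after adjustment over the 5 pairs compared. The comparison of pairs was added after the values were seen, and this adjustment does not cover that choice. As *ECM22* had a log2 fold change of −0.01, the shift of 0.62 largely repeats the 0.61 of *UPC2* alone. With any one array left out the shift was 0.54 to 0.73. Groups that are apart on all arrays cannot overlap when an array is removed, so only the size of the shift is informative here. *YEH1* minus *YEH2* also did not overlap (shift 0.19, exact p = 0.1, adjusted 0.25), but its closest arrays both read −0.42, and the shift was 0.07 without untreated replicate 3. *HMG1* minus *HMG2* shifted by 0.21 (exact p = 0.2), *ARE1* minus *ARE2* by −0.23 (exact p = 0.6) and *NSG1* minus *NSG2* by −0.01 (exact p = 1), and in each of these the groups overlapped. The *ARE* shift was −0.60, with groups apart, when neomycin replicate 1 was left out and 0.06 when replicate 2 of that group was. For the *HMG* pair the groups stood apart without neomycin replicate 1 (shift 0.29) or untreated replicate 3 (0.26), and the shift was 0.12 without neomycin replicate 3.

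**Figure D3:**
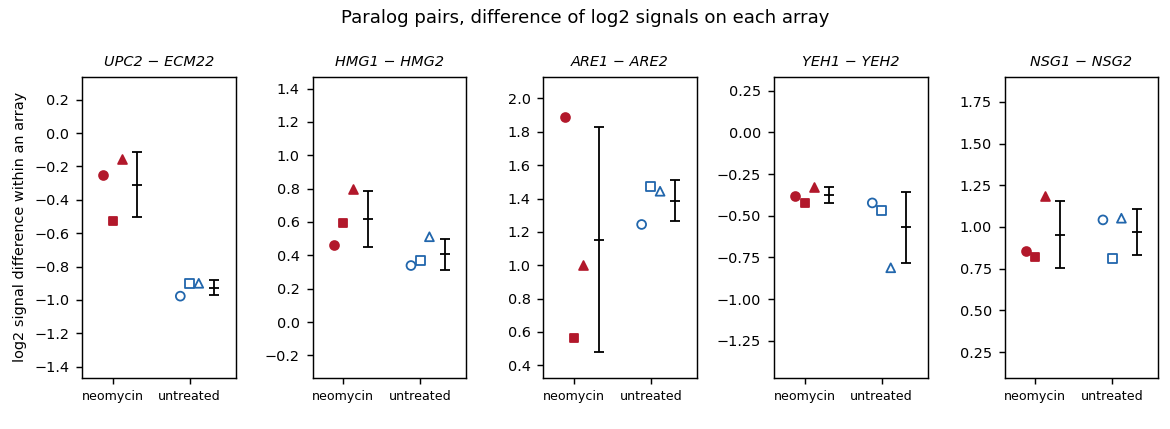
Difference of the log2 signals of the genes of 5 paralogue pairs within each array, for neomycin (filled red, left) and untreated cultures (open blue, right), with circles, squares and triangles for replicates 1, 2 and 3 and bars for the mean and SD of 3 arrays. For *UPC2* minus *ECM22* the neomycin values of −0.53 to −0.15 lie above the untreated values of −0.98 to −0.90.

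The spread among replicates was itself measured. The median SD of the 36 genes was 0.141 over the neomycin arrays and 0.0779 over the untreated arrays, against 0.164 and 0.129 over all genes. For 27 of the 36 (75%) the neomycin arrays varied more than the untreated ones, compared with 61.6% of all genes. Relative to the untreated mean, 12 sterol genes were higher on neomycin replicate 1, 27 on replicate 2 and 17 on replicate 3. Neomycin replicate 1 was the lowest treated array for 20 of them and replicate 2 the highest for 21. The order of the arrays was the same over all genes, with medians of −0.11, 0.03 and −0.05 on neomycin replicates 1, 2 and 3. It is thus not particular to the sterol genes. Whether this comes from the cultures or from the arrays was not tested.

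Other genes that handle sterols or share their precursors were described from 7 lists with 93 measured genes. Limma's adjusted test called 0 of them higher and 0 lower (0.514% of all genes were called). Unadjusted, 2 had a p under 0.05 as higher and 10 as lower, where the shares over all genes were 5.05% and 8.33%, and 1, *IZH4*, met the ratio criteria as repressed, as 0.367% of all genes did. Groups did not overlap for 13 of the 93, 2 above and 11 below. The share of all genes was 18.4%, with 5.58% above and 12.8% below.

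In sterol transport the median over 20 genes was −0.02, and the arrays separated for *KES1*, an oxysterol-binding protein homologue (−0.29, SE 0.12), and for *PRY3*, of the sterol-binding Pry family (0.32, SE 0.14, and 0.20 without untreated replicate 3). A list of 16 genes of sterol uptake and the cell wall in anaerobic cells, with other oxygen-responsive genes and the regulators *ROX1*, *MOT3* and *HAP1*, had a median of 0.02. Arrays separated for *SUT1*, a regulator of sterol uptake (−0.32, SE 0.12), and for *PDR11*, a transporter that takes sterol up (−0.16, SE 0.09). The largest value in that list, named for its size, was that of *CYC7*, a form of cytochrome c (0.60, SE 0.28, adjusted p = 0.410), whose groups overlapped. Among 12 genes of heme synthesis and of electron donors to the oxidative steps the median was −0.07, with separation for *OLE1*, the fatty acid desaturase (−0.40, SE 0.10, adjusted p = 0.182). In these 3 lists 0 genes had an adjusted p under 0.05, and 1 was higher and 5 were lower at an unadjusted p under 0.05 (limma), beside shares of 5.05% and 8.33% over all genes.

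The 12 genes of the other isoprenoid branches, which draw on farnesyl diphosphate or its precursors for prenylated proteins, dolichol, ubiquinone and heme A, had values below 0 for all 12, with a median of −0.22. Of all 5449 genes 3383 were below 0. After quantile normalisation and after centring 11 of the 12 were below 0, with medians of −0.18 in both cases, while those of all genes were then −0.02. Of all genes 3010 and 2924 were then below 0. The list's median on the neomycin arrays was −0.20, −0.08 and −0.31, against −0.03, −0.03 and 0.02 on the untreated arrays. *STE14*, which methylates farnesylated proteins such as the a-factor precursor (−0.37, SE 0.12), *CDC43*, a subunit of the enzyme that adds geranylgeranyl groups to proteins (−0.23, SE 0.11), and *RAM1*, a subunit of farnesyltransferase (−0.19, SE 0.12, and −0.08 without neomycin replicate 3), had groups that did not overlap. In this list 0 genes passed the adjusted test and 1 was lower at an unadjusted p under 0.05 (limma). Of all genes 8.33% were lower at that unadjusted p, and 12.8% had neomycin arrays below all untreated ones.

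Triacylglycerol synthesis and lipid droplet genes, 16 in all, had a median of −0.02. The groups separated for *GPT2*, a glycerol phosphate acyltransferase (0.52, SE 0.17, adjusted p = 0.272), and for *SLC1*, which acts after it (−0.29, SE 0.10, adjusted p = 0.296). *PLN1*, for a perilipin of lipid droplets and also named for its size, had overlapping groups (0.66, SE 0.37, adjusted p = 0.487). The machinery that degrades sterol enzymes in the endoplasmic reticulum had a median of −0.13 over 13 genes, with separation for *DER1* (−0.51, SE 0.12, adjusted p = 0.142) and *DFM1* (−0.17, SE 0.10, adjusted p = 0.533), which both help proteins out of the membrane. In the IZH family of membrane proteins linked to zinc and sterol, all 4 genes were below 0, as were 3383 of all 5449 genes. *IZH2* (−0.22, SE 0.10) was separated. *IZH4*, named for its value, had a ratio of 0.520 (log2 fold change −0.99, SE 0.31, adjusted p = 0.259, limma), and its groups overlapped because neomycin replicate 1, at 7.68, was above untreated replicate 3, at 7.62.

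**Figure D4:**
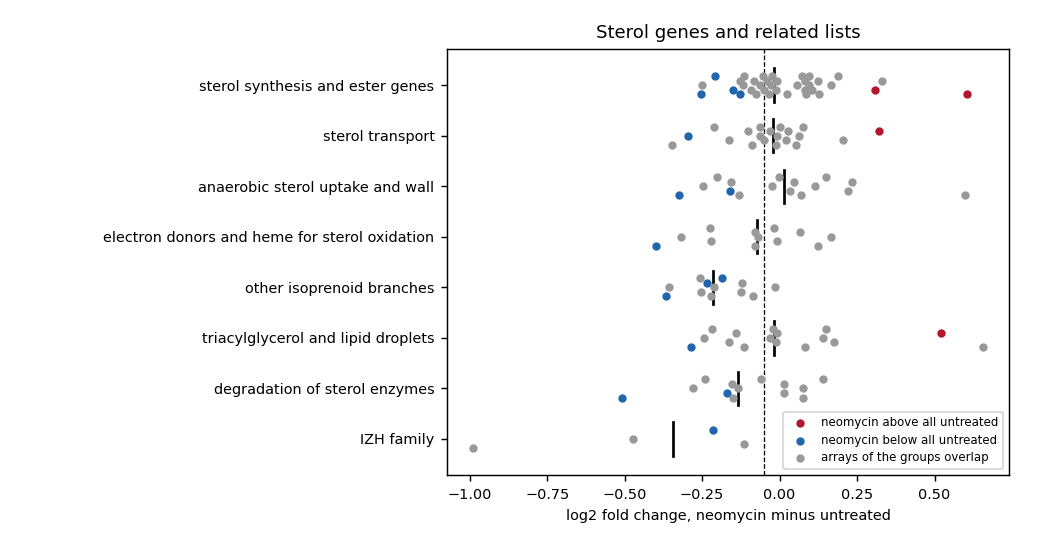
Log2 fold change, neomycin minus untreated, of each gene in the sterol set and in 7 related lists, coloured by whether the arrays of the groups overlap, with a black bar at each list's median and a dashed line at the median of all genes (−0.05). The bars of the IZH family (−0.34), the other isoprenoid branches (−0.22), the degradation genes (−0.13) and the electron donors and heme genes (−0.07) lie left of the line.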

How the data were processed

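The deposited values are the log2 GCRMA signals that the authors made from 6 Affymetrix Yeast Genome 2.0 arrays, 1 per culture. GCRMA corrects for background with the probes' sequence, normalises by quantiles and condenses each probe set to a single value, and the sources used here do not state its version. Of 5716 probe sets 5498 name 1 gene, 0 several and 218 none in the platform annotation, and symbols were updated through gene identifiers from the RefSeq R64 table. Where a gene had more than 1 probe set (47 genes), the brightest over all arrays stood for it.

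Neomycin and untreated arrays were compared with limma 3.58.1 in R 4.3.3 (lmFit, eBayes, 2-sided), adjusted by Benjamini-Hochberg over 5449 genes, and an adjusted p under 0.05 was a call. The study's criteria were rebuilt with a regularised test in the manner of Cyber-T (window of 101 genes, confidence 10, 22 degrees of freedom, settings that the study does not state). The fit was tested on simulated data. Values per array were given for sterol genes past an unadjusted p of 0.05 or without overlap, for the 3 largest changes in each direction, for the 5 paralogue pairs and for *ERG1*, *ERG9* and *ERG11*, and in each related list up to 4 genes without overlap were named by their log2 fold change. *ERG12* per array, *CYC7*, *PLN1*, *IZH4* and the comparison of pairs were added after their values were seen. The genes and lists were chosen with earlier results of these data known. *YSP1* was matched as *LAM1*, and *LDO45* was not analysed here. Alternatives were the replicate block, further scaling, a filter on dim genes, the mean of probe sets, other variance priors and leaving out each array. The number of arrays limits the precision.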

Additional observations from a re-analysis of the deposited data

How the results depend on the processing

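Over all genes limma called 23 higher and 5 lower. Higher genes numbered 0 with the replicate block, 50 after quantile normalisation, 42 after centring, 40 without the 1363 dimmest genes and 48 with an intensity trend, and lower genes 0 with the block and 14 with the trend. Leaving out 1 array gave 0 to 119 higher and 0 to 23 lower genes. Of the sterol genes 0 were called under these settings, or at an adjusted p under 0.1 in the comparison as reported, except that leaving out 1 array gave 0 to 2 higher, *UPC2* and *ARE2* without neomycin replicate 1. Sterol genes without overlap, 2 above and 4 below, became 4 above after centring, 1 above without the dimmest genes, which leaves out *UPC2*, and 2 below after quantile normalisation. With 1 array left out they were 2 to 7 above and 4 to 12 below, most above without neomycin replicate 1 and most below without neomycin replicate 2. Leaving out an array can only keep or raise these counts. Over all genes the share above rose from 5.58% to 14.2% without neomycin replicate 1. The share below rose from 12.8% to 27.5% without neomycin replicate 2. The upper ends are therefore not read as a result about the sterol genes. By the ratio criteria 79 genes were induced and 20 repressed, 67 to 118 and 20 to 35 with 1 array left out, and of the sterol genes 0 to 1 were induced. The cause of these shifts was not tested.

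Of the 36 sterol genes 13 changed sign under at least 1 setting, with reported values of at most 0.0932 in size, and of these 5 did so on centring (*ERG13*, *ERG20*, *ERG6*, *TGL1* and *ECM22*) and 3 after quantile normalisation (*ERG6*, *TGL1* and *ECM22*). *ECM22*, at −0.01, was 0.036 after quantile normalisation and 0.024 after centring, and −0.17 to 0.15 with 1 array left out. In the same way *ERG1* ran from −0.10 to 0.0022, *ERG11* from −0.049 to 0.20 and *NSG2* from −0.15 to 0.074. The replicate numbers were not taken to pair the cultures, since the correlations of same-numbered deviations were −0.00, −0.38 and 0.44, while neomycin replicate 1 correlated best with untreated replicate 2 (0.40) and neomycin replicate 2 with untreated replicate 1 (0.40). The same-numbered block changed no call of a sterol gene (adjusted p of *UPC2* 0.157).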
